A study of Mus musculus with 15 samples.

Results

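Ncl encodes nucleolin and is the row with that symbol, 1 gene of the 55490 in the deposited count table (ENSMUSG00000026234, chromosome 1, 86344719 to 86359455 of GRCm38.p6 by RefSeq). It was selected on its share of the ribosome-bound counts, the highest mean of any protein-coding gene in these libraries, so its level and rank are given as a description, without a test. Its differences between genotypes and stages were tested, although it was chosen with earlier results of these data known, its values by stage and genotype among them.

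Nucleolin is one of the most abundant proteins of the nucleolus, the nuclear body where ribosomal RNA (rRNA) is transcribed, cut and assembled into ribosomal subunits. It binds RNA through a series of RNA-recognition domains, carries long acidic stretches and a tail rich in glycine and arginine, and acts in transcription by RNA polymerase I, in early pre-rRNA processing and as a histone chaperone. Fully grown mouse oocytes, before their nucleus breaks down, hold compact nucleolus-like bodies with little rRNA synthesis. M2 eggs, arrested in meiosis, have no nucleus, zygotes hold nucleolus precursor bodies, and rRNA synthesis resumes during the 2-cell stage.

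The 15 libraries were made by low-input ribosome profiling, which sequences the RNA fragments that ribosomes shield from nuclease. The material was M2 eggs, zygotes labelled PN5 and early 2-cell embryos (E2C) of strain B6D2F1, from donor females that were Eif4e1b knockout (KO) or heterozygous (Het). Eif4e1b is a germ-cell member of the family of proteins that bind the mRNA cap, and the Het females that served as controls carry 1 altered allele themselves. Every donor, of either genotype, also carried Rpl22 with an HA tag, a label on a protein of the large ribosomal subunit. Ribosomes were pulled down by that tag for 4 h after digestion with 100 units of RNase I for 45 min, and 22 PCR cycles were used. There were 2 M2 Het, 2 M2 KO, 3 PN5 Het, 3 PN5 KO, 3 E2C Het and 2 E2C KO libraries, each from a pool of about 200 eggs or zygotes or about 100 embryos. The genotype is that of the mother, and the labels do not say whether pools of a group had different mothers. The p-values therefore reflect variation among these pools, which may be partly technical.

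Library totals ran from 93222 to 1201146 counts, of which rRNA genes took 93.4% to 98.4%. Protein-coding genes held 0.696% to 5.10% of the counts, or 1059 to 47397 counts. Of the 55490 gene rows 5763 had a count in any library, and each library had a count for 318 to 1678 protein-coding genes. How reads that map to more than 1 place were counted is not given. A value of 0 is therefore no sign that an mRNA was absent from ribosomes. Every egg and zygote library had at least 5997 protein-coding counts and no early 2-cell library had more than 7795, so early 2-cell values carry the larger counting error. Eif4e1b had 0 counts in every library, and gave no check of which libraries were KO. Of the 29 egg markers with a row, 14 had a count, led by Dnmt1 with 442, Zbed3 with 430 and Npm2 with 351; Zp1, Zp2 and Zp3, the genes of the egg coat, were at 0. Markers of blood and sperm held 1 count in all. All shares below are percentages of a library's protein-coding counts. They are not divided by transcript length, so an order between genes is an order of counts and not of density along the mRNA. Counting intervals are 95% Wilson intervals and cover counting error only, since PCR copies were not marked.

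The number of counts assigned to Ncl was 18158 of 255762 protein-coding counts, 7.10% of the sum, and it was 42 to 3702 per library. It had a count in 15 of 15 libraries, with a lowest share of 1.42%, a median of 5.67% and a highest of 11.9%.

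In M2 eggs, the 2 Het libraries held 2283 Ncl counts of 20907 (10.9%, interval 10.5% to 11.3%) and 2588 of 22260 (11.6%, 11.2% to 12.1%). The 2 M2 KO libraries held 715 of 5997 (11.9%, 11.1% to 12.8%) and 3702 of 47397 (7.81%, 7.57% to 8.06%). The KO libraries thus lay on either side of the Het libraries. Ncl was the first-ranked protein-coding gene in all 4 egg libraries, ahead each time of Eif5b, the factor that joins the ribosomal subunits at the start codon. Its lead over Eif5b was 2.16-fold and 1.58-fold in the Het eggs and 1.15-fold and 1.21-fold in the KO eggs.

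In PN5 zygotes, the 3 Het libraries held 1452 of 36919 (3.93%, interval 3.74% to 4.14%), 1638 of 33198 (4.93%, 4.71% to 5.17%) and 351 of 8614 (4.07%, 3.68% to 4.51%). The 3 PN5 KO libraries held 1597 of 15395 (10.4%, 9.90% to 10.9%), 610 of 11811 (5.16%, 4.78% to 5.58%) and 2892 of 39997 (7.23%, 6.98% to 7.49%). Every KO library was above every Het library, but the lowest KO library and the highest Het library had overlapping counting intervals. Ncl ranked first in 5 of these 6 libraries and had rank 7 in Het replicate 3. In that library Eif5b led with 11.7%, and Lrrfip1, Smarca2, Acbd3, Nexn and Top1 were also above Ncl. In the first Het library the lead was 2 counts, with 1452 for Ncl and 1450 for Nexn, which encodes an actin-binding protein.

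In early 2-cell embryos, the 3 Het libraries held 60 of 1059 (5.67%, interval 4.43% to 7.23%), 42 of 1655 (2.54%, 1.88% to 3.41%) and 111 of 7795 (1.42%, 1.18% to 1.71%). The 2 E2C KO libraries held 45 of 1623 (2.77%, 2.08% to 3.69%) and 72 of 1135 (6.34%, 5.07% to 7.91%). The genotypes overlapped, and 1 library of each was well above the rest of the stage. The rank of Ncl in the 3 Het libraries was 2, 3 and 8, each time behind Cdk11b, a cyclin-dependent kinase tied to transcription and splicing, which took 5.95%, 21.0% and 15.9%. Its rank was 3 in KO replicate 1, behind Nexn and Eif5b, and 1 in KO replicate 2. Cdk11b had no count in either KO library of this stage.

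**Figure D1:**
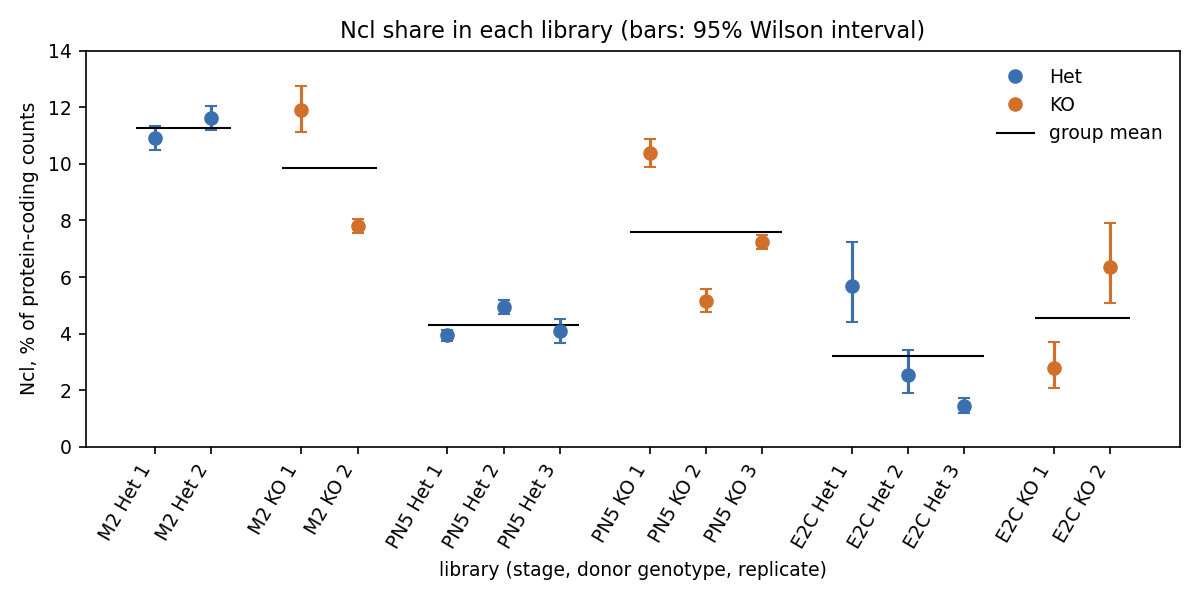
Share of protein-coding counts assigned to Ncl in each of the 15 libraries (y axis, percent), by stage and donor genotype; points are libraries with 95% Wilson intervals and lines are group means. The 4 M2 libraries sit between 7.81% and 11.9%, above all 5 early 2-cell libraries, and the 3 PN5 KO libraries sit above the 3 PN5 Het libraries.

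By group, the mean Ncl share was highest in M2 Het at 11.3% ± 0.50 (SD, n = 2) and next in M2 KO at 9.87% ± 2.91 (SD, n = 2). PN5 KO followed at 7.59% ± 2.62 (SD, n = 3), then E2C KO at 4.56% ± 2.53 (SD, n = 2). PN5 Het had 4.31% ± 0.542 (SD, n = 3) and E2C Het was lowest with 3.21% ± 2.20 (SD, n = 3). Each pair of neighbours in this order overlapped in its libraries. As CPM (Ncl counts divided by the effective library size of the fit, which is the total of all counts, rRNA included, multiplied by the TMM factor of the library), its level ran from 4028 ± 1158 in M2 Het and 2982 ± 515 in M2 KO through 2515 ± 1364 in PN5 KO and 1491 ± 445 in PN5 Het to 477 ± 234 in E2C KO and 408 ± 180 in E2C Het. On that scale zygotes of KO donors had the higher mean than zygotes of Het donors and early 2-cell embryos had the lowest means. Without that factor, as a share of all counts, the PN5 KO libraries held 0.152% to 0.325% Ncl and the PN5 Het libraries 0.0466% to 0.163%, and the genotypes overlapped.

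Among the 10 protein-coding genes with the highest mean share, Ncl was the one that ranked first most often, in 10 libraries, of which 9 were among the 10 egg and zygote libraries. The rank depends on which genes it is taken over. Among all genes not classed as rRNA by symbol or by RefSeq, which include non-coding RNAs and rows without a RefSeq match, Ncl was first in 4 libraries. In most of the others the row CT010467.1 stood above it. Whether such rows hold rRNA sequence was not tested. Eif5b had a mean of 5.07% ± 2.87 (SD, n = 15), Nexn 4.09% ± 1.97, Cdk11b 3.62% ± 6.27 and Anp32b, an acidic histone chaperone, 3.45% ± 2.46. Lrrfip1, Top1 (the topoisomerase that relaxes DNA during transcription), Acbd3 (a Golgi protein), Map1b (a microtubule-associated protein) and Smarca2 (a chromatin-remodelling ATPase) had means of 1.57% to 2.34%. From its lowest to its highest library Ncl varied 8.37-fold and Eif5b 7.37-fold. The same ratio was 112-fold for Nexn, 92.0-fold for Smarca2, 50.01-fold for Map1b and 45.9-fold for Lrrfip1, while Cdk11b, Anp32b, Top1 and Acbd3 each had no count in at least 1 library. As a percentage of the mean, the SD over libraries was 53.3% for Ncl, 56.5% for Eif5b, 48.3% for Nexn and 173% for Cdk11b. Ncl was above Eif5b in 12 of 15 libraries, and the group means of the Ncl to Eif5b ratio lay between 0.977 ± 0.569 in PN5 Het and 1.87 ± 0.411 in M2 Het.

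**Figure D2:**
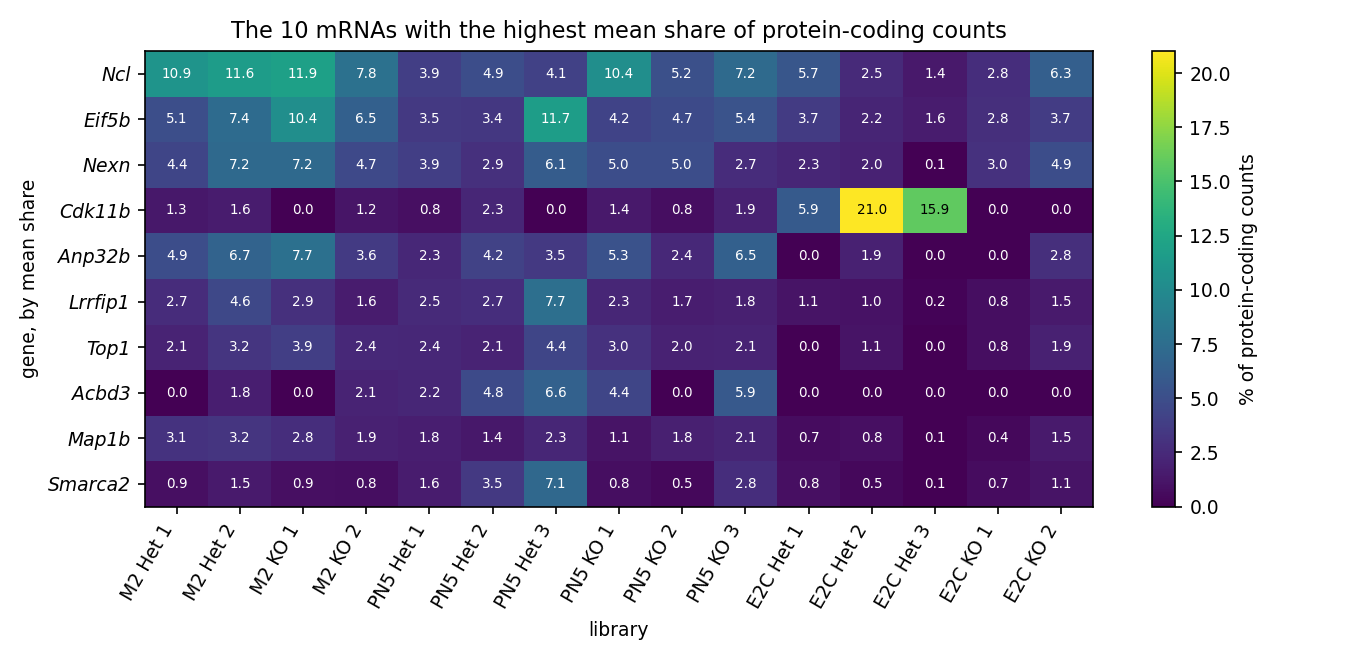
Share of protein-coding counts (percent) of the 10 genes with the highest mean share in each of the 15 libraries, which are ordered by stage and genotype. Ncl, Eif5b, Nexn, Lrrfip1, Map1b and Smarca2 have a count in all 15 libraries, whereas Cdk11b is high in the 3 early 2-cell Het libraries and has no count in the 2 early 2-cell KO libraries.

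The comparison of KO with Het donors asks whether the ribosome-bound counts assigned to Ncl differed between the genotypes. In no stage did Ncl pass the test, an edgeR quasi-likelihood fit over 495 genes and all 15 libraries with Benjamini-Hochberg adjustment. In M2 eggs, KO minus Het was −0.43 on the log2 scale (SE 0.89, 95% interval −2.33 to 1.46, edgeR adjusted p = 1). In PN5 zygotes it was 0.75 (SE 0.73, interval −0.80 to 2.31, edgeR adjusted p = 1). In early 2-cell embryos it was 0.23 (SE 0.82, interval −1.50 to 1.96, edgeR adjusted p = 1). The mean over the 3 stages was 0.18 (SE 0.47, interval −0.82 to 1.18). The KO effect in zygotes minus that in eggs was 1.19 (SE 1.16, interval −1.26 to 3.64, edgeR adjusted p = 1). The KO effect in early 2-cell embryos minus that in zygotes was −0.53 (SE 1.10, interval −2.86 to 1.81, edgeR adjusted p = 1), so neither difference between stages was detected.

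The background to these values is that no gene passed in any of the KO comparisons, 0 of 495 (0%). At an unadjusted p under 0.05 edgeR had 6 genes in eggs, 35 in zygotes, 25 in early 2-cell embryos and 20 for the mean over stages, and 26 and 25 for the 2 differences between stages. DESeq2 called 2, 2, 4 and 2 genes in the first 4 of these comparisons and 0 in both differences, and limma-voom called 0 in all 6. Ncl was not past the threshold of 0.05 with either tool in these comparisons.

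The order of the PN5 libraries, with every KO library above every Het library, was shared by 15 of the 425 tested protein-coding genes (3.53%). The summed share of markers of cumulus and granulosa cells, which surround the egg in the follicle, was ordered the same way. It was 0.288% to 0.908% in the PN5 KO libraries and 0.0116% to 0.195% in the PN5 Het libraries. In the other groups it was 0.211% to 0.909% in M2 Het, 0.0333% to 0.234% in M2 KO, 0.0128% to 0.189% in E2C Het and 0% in E2C KO. The members differed: between KO and Het zygotes 2 of the 3 tested markers were above 0 and 1 below, and 0 passed. Cyp11a1 had 387 counts in 2 PN5 KO libraries and 0 in PN5 Het. The mean share of Gja1 was lower in PN5 KO, at 0.0251%, than in PN5 Het, at 0.0395%. Of 27 such markers 10 had a count, and 561 of their 894 counts were Cyp11a1, the enzyme that starts steroid synthesis, in 5 libraries; Amh, Fshr, Lhcgr and Star were at 0. The part of these cells in the Ncl values was not tested. On log2 shares, Ncl was 1.31-fold higher in KO than in Het across the 3 stages, with 6 of 7 KO libraries above the Het mean log2 share of their stage; against the means of the shares themselves it was 5 of 7. That difference did not pass a two-sided exact permutation test within stages (p = 0.246, and 0.246 adjusted over 4 such tests). The share tests here and below use the shares by which Ncl was chosen, so their p-values are not independent of that choice.

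**Figure D3:**
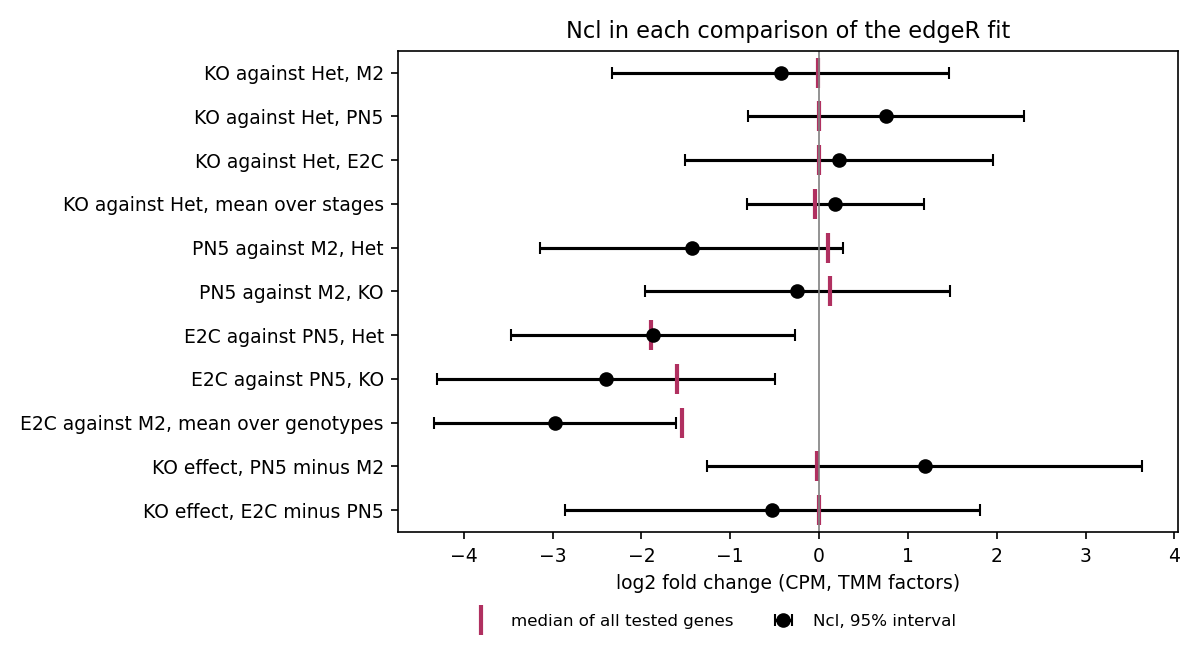
Log2 difference in Ncl for each comparison fitted with edgeR (points, with 95% intervals) beside the median log2 difference of all 495 tested genes. Only early 2-cell embryos against M2 eggs, at −2.97, passed the adjusted threshold, and in that comparison the median gene was at −1.54.

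Between stages, Ncl fell from M2 eggs to early 2-cell embryos. Over both genotypes, early 2-cell minus M2 was −2.97 on the log2 scale (SE 0.64, 95% interval −4.34 to −1.61, edgeR adjusted p = 0.0338), a 7.86-fold lower value, and Ncl was the fourth gene of 495 by p. The mean of the Het and KO group means of TMM-scaled CPM was 3505 in M2 eggs and 443 in early 2-cell embryos. The median of all tested genes was −1.54 in the same comparison, and relative to that median Ncl was at −1.43. The median itself depended on the scaling: it was −0.84 with DESeq2 size factors and −1.41 with library totals, and Ncl relative to it was at −1.25 and −1.16. As a share of protein-coding counts, which removes the change in the protein-coding total, Ncl was 3.08-fold lower, with 5 of 5 early 2-cell libraries below the M2 mean of their genotype; that test missed the threshold (two-sided exact permutation p = 0.0333, 0.0667 adjusted over 4 tests). Every M2 library was above every early 2-cell library, with 7.81% the lowest M2 share and 6.34% the highest early 2-cell share, as for 29 of the 425 tested protein-coding genes (6.82%). In pooled material, fewer or smaller cells, less Ncl mRNA and fewer ribosomes on each mRNA cannot be told apart, and no matched mRNA libraries were analysed here.

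In that comparison 9 of 495 genes passed (1.82%), all of them lower in early 2-cell embryos. Beside Ncl they were Eif5b at −2.83 (SE 0.64, edgeR adjusted p = 0.0338), Ddx21, a nucleolar RNA helicase, Map1b at −3.41 (edgeR adjusted p = 0.0454), Lrrfip1 at −3.10 (edgeR adjusted p = 0.0483), Nefh, Cenpe, Ktn1 and AC161374.3. DESeq2 called 52 genes, 28 higher and 24 lower, and limma-voom 14, of which 1 was higher. The call of Ncl rests on the scaling: it ended with library totals (−2.57, adjusted p = 0.0906), with DESeq2 size factors in edgeR (−2.09, adjusted p = 0.117) and with the replicate number as a block (−2.93, adjusted p = 0.101). It also ended, with values of −3.95 to −3.11, when M2 Het replicate 2, M2 KO replicate 2, E2C KO replicate 1 or E2C KO replicate 2 was left out (adjusted p 0.0885, 0.0932, 0.170 and 0.136); restricted to the 63 genes with a mean of at least 50 counts the difference was −1.67 and the median gene −1.45. Over all alternatives the direction was the same.

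The steps between successive stages did not pass. From M2 eggs to PN5 zygotes Ncl changed by −1.43 with Het donors (SE 0.80, interval −3.14 to 0.27, edgeR adjusted p = 0.859) and by −0.25 with KO donors (SE 0.81, interval −1.96 to 1.47, edgeR adjusted p = 1). Both M2 Het libraries were above all 3 PN5 Het libraries, an order shared by 38 of the 425 tested protein-coding genes (8.94%), while M2 KO and PN5 KO overlapped. From PN5 zygotes to early 2-cell embryos it changed by −1.87 with Het donors (SE 0.75, interval −3.47 to −0.27, edgeR adjusted p = 0.246) and by −2.40 with KO donors (SE 0.90, interval −4.31 to −0.49, edgeR adjusted p = 0.554). The median of all genes in these last 2 comparisons was −1.90 and −1.60, so with Het donors Ncl lay close to the median gene.

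For these 4 steps edgeR called 0 of 495 genes (0%), with 17, 21, 97 and 43 at an unadjusted p under 0.05. DESeq2 called 4, 1, 40 and 13, and limma-voom 0, 0, 11 and 0. DESeq2 placed Ncl past the threshold in 2 of them, from M2 to PN5 with Het donors (−1.60, adjusted p = 0.0488) and from PN5 to early 2-cell with KO donors (−1.56, adjusted p = 0.0289). On the share scale Ncl was 1.86-fold lower in zygotes than in eggs, with 5 of 6 PN5 libraries below the M2 mean of their genotype (two-sided exact permutation p = 0.02, 0.0667 adjusted over 4 tests). It was 1.65-fold lower in early 2-cell embryos than in zygotes, with 4 of 5 libraries below the mean (exact permutation p = 0.105, adjusted 0.14). These share tests turned on the scale: as differences in percentage points, PN5 against M2 and early 2-cell against M2 both had an adjusted exact permutation p of 0.04, and as shares of all counts both comparisons with early 2-cell embryos had 0.0333.

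The genes whose share followed that of Ncl most closely over the 15 libraries were sought among the 167 other protein-coding genes with a count in at least 12 libraries. The likeness is Pearson's r of log2 shares, given as a description. All shares of a library have the same denominator, and the 5 shallow early 2-cell libraries lie at one end. The closest were Golgb1, a large Golgi protein, with r = 0.810 (Spearman's rho 0.725), Map1b with 0.795 (0.714), Cenpf, a kinetochore protein, with 0.776 (0.696), Nexn with 0.739 (0.661) and Mphosph8, a reader of a repressive histone mark, with 0.725 (0.65). None of the 5 is on the nucleolar lists given below. Of those lists only Nvl, Nol8, Nol10, Top1, Wdr43, Rbm28 and Nop58 had a count in at least 12 libraries. With so few among the 167, that absence says nothing about nucleolar genes. Over the 167 genes the median r was −0.116, 17 were above 0.5 and 103 below 0. Without the 2 libraries farthest from the median Ncl share, both E2C Het, r fell to between 0.397 and 0.622 for the 5 genes. Within the 10 egg and zygote libraries it was 0.622 for Golgb1, 0.478 for Cenpf, 0.400 for Nexn, 0.393 for Map1b and 0.214 for Mphosph8. Outside the early 2-cell libraries, then, Golgb1 alone of the 5 was above 0.5.

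Other genes of the nucleolus were read from 5 lists that follow the path of rRNA: 27 genes of nucleolar structure and pre-rRNA assembly, 17 of RNA polymerase I transcription, 42 of the small-subunit processome, 36 of large-subunit assembly and 15 of the snoRNP core, the proteins that carry small nucleolar RNAs. Of these 137 genes 58 had a count in any library and 21 passed the filter of the fit. Of all 55490 rows, coding or not, 5763 had a count and 495 passed, and of the 21443 protein-coding rows 425 passed. Together the 137 genes held 11492 counts, of which 6056 were Top1, a general topoisomerase that also acts at rRNA genes. The other 136 held 5436 counts, so Ncl alone had 3.34 times their sum, and it was above that sum in 12 of 15 libraries. The 3 exceptions were early 2-cell libraries, Het replicates 2 and 3 and KO replicate 1. With Top1 kept in, Ncl had 1.58 times the sum and was above it in 9 of 15 libraries. Ncl was chosen for its high share, so its excess over other genes follows in part from that choice and is only a description.

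Set against Ncl, these 136 genes held a small part of the protein-coding counts in eggs. Their summed share was 1.20% ± 0.075 in M2 Het (SD, n = 2), 1.76% ± 0.458 in M2 KO (SD, n = 2), 2.27% ± 0.605 with Het zygotes (SD, n = 3) and 1.80% ± 0.731 with KO zygotes (SD, n = 3). It had its highest means in early 2-cell embryos, 4.83% ± 1.98 in Het (SD, n = 3) and 3.27% ± 2.00 in KO (SD, n = 2). Those means rest on 27, 102 and 450 counts in the Het libraries and 76 and 21 in the KO libraries. Het replicate 1 at 2.55% and KO replicate 2 at 1.85% lay within the zygote range of 0.991% to 2.90%. Ncl over that sum was 9.39 ± 0.167 in M2 Het and 6.03 ± 3.23 in M2 KO. In zygotes it was 1.96 ± 0.323 with Het and 4.48 ± 1.29 with KO donors, and it was 0.960 ± 1.10 in E2C Het and 2.01 ± 2.01 in E2C KO. These ratios were not tested. Over libraries they ran from 3.75 to 9.51 in M2 eggs, from 1.70 to 5.24 in zygotes and from 0.247 to 3.43 in early 2-cell embryos, so neighbouring stages overlapped.

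**Figure D4:**
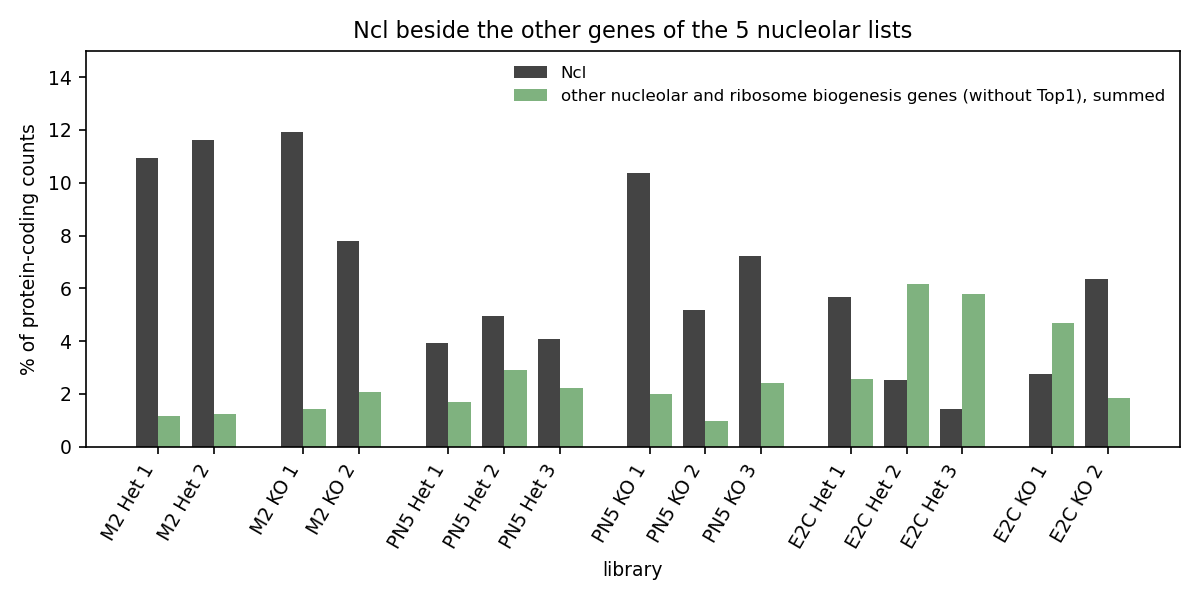
Share of protein-coding counts (percent) of Ncl beside the summed share of 136 other nucleolar genes, Top1 left out, in each of the 15 libraries. Ncl lies above the sum in 12 libraries, including all 10 of eggs and zygotes, and below it in 3 early 2-cell libraries. Ncl was chosen for its high share.

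Taken member by member, the fitted direction of the nucleolar genes was the same as that of Ncl for most members in some comparisons and not in others, and no difference in direction was tested. From M2 to PN5 with Het donors, where Ncl was at −1.43, 18 of the 21 were above 0 with a median of 1.33, and 0 passed. The median of all genes was 0.10, with 45.7% of them below 0. Between KO and Het zygotes, where Ncl was at 0.75, 16 of the 21 were below 0 with a median of −0.65, against 0.00 for all genes of which 49.3% were below 0, and 0 passed. In M2 eggs 12 were above 0 and 8 below between KO and Het (median 0.26), with 50.9% of all genes below 0. In early 2-cell embryos 5 were above and 13 below (median −0.35), with 38.0% of all genes below 0. In each, 0 passed. From M2 to early 2-cell embryos 10 were above 0 and 10 below with a median of 0.00, while 69.9% of all genes were below 0 and the median was −1.54. The filter scaled counts by library totals, so a few counts in shallow early 2-cell libraries were enough for a gene to be tested. Gnl2 was tested with 42 counts in all, whereas Rsl1d1 with 124 was not. Directions in comparisons with early 2-cell embryos partly follow from that entry, and cannot show a trait of the nucleolar genes. From PN5 to early 2-cell embryos 13 of 21 were below 0 with Het donors (median −0.64) and 13 of 21 with KO donors (median −3.27). Of all genes 68.9% were below 0 in either comparison, with medians of −1.90 and −1.60, so the negative direction was not particular to the nucleolar genes. From M2 to PN5 with KO donors 11 were above 0 and 10 below, with 43.2% of all genes below 0. In each of these comparisons 0 passed. The 1 nucleolar gene that passed between M2 and early 2-cell embryos was Ddx21, lower by 7.10 (a fitted log2 difference of −7.10, edgeR adjusted p = 0.0378). That size is no bound, because Ddx21 had 0 counts in all 5 early 2-cell libraries and 344 in the other 10.

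By role, the genes of nucleolar structure and pre-rRNA assembly held 2226 counts, led by Ddx21, Nol8 with 313, Lyar with 309 and Mki67, the surface protein of mitotic chromosomes, with 300. The small-subunit processome held 2151 counts, of which Wdr43 had 792 in 15 libraries and Bms1, its GTPase, 611 in 4. Large-subunit assembly held 582, of which Rbm28 had 300, and the snoRNP core 358, of which Nop58, the box C/D scaffold protein, had 233. Rbm28 and Nop58 had their highest group means in early 2-cell embryos. Rbm28 had a mean share of 1.01% ± 1.33 in E2C Het (SD, n = 3) and 0.515% ± 0.230 in E2C KO (SD, n = 2), against 0.046% to 0.123% in the other groups. Nop58 had 0.671% ± 0.741 in E2C Het (SD, n = 3) and 0.489% ± 0.442 in E2C KO (SD, n = 2), against 0.028% to 0.083%. From M2 to early 2-cell embryos Rbm28 was at 2.26 and Nop58 at 2.31 on the log2 scale, and neither passed (edgeR adjusted p = 0.218 for both).

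Of the nucleoplasmin family, the acidic proteins that sit with nucleolin in nucleoli and egg nuclei, Npm1 and Npm3 were at 0 in every library, and Npm2, the egg member, had its 351 counts in 2 libraries. The wider list of acidic histone chaperones, to whose activity nucleolin is likened, had 10 of 17 members with a count and 12526 counts, of which Anp32b held 10954. The mean share of Anp32b was 5.81% ± 1.24 in M2 Het (SD, n = 2), 5.64% ± 2.96 in M2 KO (SD, n = 2), 3.32% ± 0.930 with Het zygotes (SD, n = 3) and 4.73% ± 2.07 with KO zygotes (SD, n = 3). It was 0.645% ± 1.12 in E2C Het (SD, n = 3) and 1.41% ± 1.99 in E2C KO (SD, n = 2), with a count in 1 library of each. The order of the group means of Anp32b matched that of Ncl except that E2C KO lay below PN5 Het. From M2 to early 2-cell embryos Anp32b was at −3.96 (SE 1.49, edgeR adjusted p = 0.174), and it did not pass. Of its family, Anp32e had 93 counts in 6 libraries and Anp32a was at 0, as was Set.

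Introns of Ncl hold genes of small nucleolar RNAs, which guide modification of rRNA. Snora75 (chromosome 1, 86351170 to 86351285) had 31 counts in 7 libraries and Snord82 (86356260 to 86356327) 17 counts in 9 libraries, both inside the Ncl gene on GRCm38.p6. Together they had 48 counts against 18158 for Ncl.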

How the data were processed

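The values deposited by the authors are estimated counts, whole numbers per gene without normalization, in 1 table of 15 libraries. The submitters' processing notes name cutadapt, STAR 2.7.6a, StringTie 2.1.4, deepTools 3.5.1 and GRCm38, but the step that turned alignments into counts is not given in these sources. Gene classes came from a RefSeq table of GRCm38.p6: 39101 row symbols matched directly, 164 by an older symbol and 16225 not at all. Protein features were not used here.

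Counts were fitted in R 4.3.3 with edgeR 4.0.16 (TMM scaling, filterByExpr at a minimum count of 10, robust quasi-likelihood fit of 6 groups, 495 genes), and p-values were adjusted by Benjamini-Hochberg over all 495. Standard errors were worked back from the F statistic. The fit was also run on simulated counts whose spread was set beforehand and not estimated from these libraries, so that run checks the code only. Shares were compared with exact permutation tests within stages or genotypes, on log2 values with 0.5 added to counts and 1 to totals. DESeq2 1.42.0 and limma 3.58.1 were alternatives. Same-numbered libraries correlated at −0.324 to 0.104 in their deviations from the group means, so the numbers were not taken as pairs. No libraries of a group agreed within sampling noise.

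Named genes are Ncl, the 10 with the highest mean share, the 5 most like Ncl, members of each list with at least 100 counts (up to 6 a list, the main ones given) and the genes called between M2 and early 2-cell stages, which were named after their values were seen, as were list members given as at 0. Ncl and the lists were chosen with earlier results of these data known.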

Additional observations from a re-analysis of the deposited data

How the results depend on the processing

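Over the 11 fitted comparisons of Ncl, 170 of 184 alternative fits kept the direction and the side of the threshold; the causes of the changes were not tested. For early 2-cell against M2 the log2 difference was −2.09 with DESeq2 size factors, −2.57 with library totals and −2.93 with the replicate block, none past the threshold, and −3.95 to −2.92 with 1 library left out, of which 4 of 9 fits missed it. DESeq2 put Ncl past the threshold for PN5 against M2 in Het (−1.60) and early 2-cell against PN5 in KO (−1.56). KO against Het in early 2-cell embryos turned to −0.14 with the replicate block and ran from −0.056 to 0.98 with 1 library left out. Left-out libraries also moved PN5 against M2 in KO from −0.73 to 0.16 and the KO effect in early 2-cell minus PN5 from −1.02 to 0.37. The block changed no other call of Ncl. In the share tests, differences in percentage points passed for PN5 against M2 (−4.62) and early 2-cell against M2 (−6.69), and log2 shares of all counts passed for early 2-cell against PN5 (−1.51) and against M2 (−2.51). Ncl was chosen on its share, so the p-values of the share tests are not independent of that choice. Early 2-cell against PN5 ran from −1.02 to −0.43 with 1 library left out and passed without E2C Het replicate 1. Ncl ranked first in 10 libraries among protein-coding genes, in 5 when unmatched rows were added to these, and in 4 among all genes not classed as rRNA. For early 2-cell against M2 the genes called numbered 9, and 0 with size factors, totals or the block, 25 with no low-count filter, 52 with DESeq2 and 14 with limma-voom; for early 2-cell against PN5 in Het they numbered 0, and 3 with no filter or a mean of at least 50. Depth limits the early 2-cell values, with at most 7795 protein-coding counts in a library.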
